A study of Mus musculus with 192 samples.

Results

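At T1, the prediabetic time point, brain RNA of HOM mice was compared with that of NON mice in the midbrain, the left cortex and the right cortex. HOM mice are homozygous for the L44 transgene, in which the rat insulin 2 promoter drives tripro-hA (an amylin construct) on the FVB/n background, and NON mice carry no transgene. The pools were chosen by their labels for time point, genotype and region, which took 27 of the 192 pools of the series, 4 HOM and 5 NON pools in each region. In each region the HOM pools were made from 8 males and the NON pools from 9 males, all 99 to 101 days old and given no other treatment in the labels. A pool combined the RNA of 2 mice, except NON pool 6, which held 1. HOM pools 3/4 and 6/7 and NON pools 2/7 and 8/9 came from morning collections (AM), and HOM pools 1/5 and 8/9 and NON pools 1/3, 4/5 and 6 from afternoon collections (PM). Values below follow that order of pools. The NON mice were littermates or other mice of the same age, and all HOM mice are of the 1 line L44.

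Each pool was hybridised to 1 panel of nCounter probes, in which a barcoded probe is counted for every captured mRNA, with no amplification step. The panel holds 43 target genes and 3 reference genes. Summed over the target genes, the counts ran from 172024 to 237824 per HOM pool and 227941 to 275319 per NON pool for the midbrain, 364812 to 490984 and 276359 to 424114 for the left cortex, and 415332 to 473783 and 298892 to 428110 for the right cortex. A normalised count is the deposited count scaled to the geometric mean of the reference genes, and background is 2 SD above the mean of a pool's 8 negative control probes. Background lay between 10.6 and 42.0 raw counts per pool. Levels of different genes are not compared, because probes differ in efficiency. In these bulk pools, fewer cells of a type and less RNA per cell cannot be told apart.

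Amylin is secreted together with insulin by pancreatic beta cells and acts on the brain through the calcitonin receptor joined to a receptor activity-modifying protein (RAMP), which lowers food intake. Leptin signals through Lepr, Jak2 and Stat3, and Stat3 induces Socs3, which binds to the receptor complexes of leptin and insulin and ends their signals. In the hypothalamus these hormones act on neurons that make Pomc and Cart, which reduce feeding, and on neurons that make Npy and Agrp, which promote it, while in the cortex Npy is made by interneurons.

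The midbrain sample of the study includes forebrain and hypothalamus, and the markers of the hypothalamus were measured in it. All 5 hypothalamic markers (Hcrt, which encodes orexin, Mch, which encodes melanin-concentrating hormone, Agrp, Pomc, and Hdc, the enzyme of histamine neurons) were above background in all 9 midbrain pools, and none was at 0 in any pool of the 3 regions. Their summed normalised count was 22045 to 27603 per midbrain pool, of which the Mch probe gave 93.3% to 95.1% of the counts, and 261 to 477 per cortical pool, on each region's own scale. The sum therefore follows the Mch probe, and its share of the counts is no comparison of mRNA levels. The panel holds no marker of glia, blood vessels or blood, so those cells were not measured.

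No gene of the panel passed the test between HOM and NON in any of the 3 regions after adjustment. Of 43 genes tested per region, with collection time as a covariate, edgeR's quasi-likelihood test, adjusted by Benjamini-Hochberg, called 0 at an adjusted p under 0.05, 0.0% of the panel, in the midbrain, the left cortex and the right cortex. At an unadjusted p under 0.05 it found 1 midbrain gene (2.33%), 6 left cortex genes (14.0%) and 1 right cortex gene (2.33%), and DESeq2 called 0, 4 and 1. The lowest adjusted p was 0.595 in the midbrain (Ins1), 0.104 in the left cortex (Lepr and Insr) and 0.372 in the right cortex (Ramp3). The median log2 fold-change of HOM over NON over the 43 genes was -0.017, 0.043 and 0.013. Socs3 had the highest log2 fold-change of the panel in each region. Lepr, Insr, Arrb1, Ramp2, Ramp3, Ramp1 and Mc4r, given below with their values, were chosen after their values were seen.

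**Figure D1:**
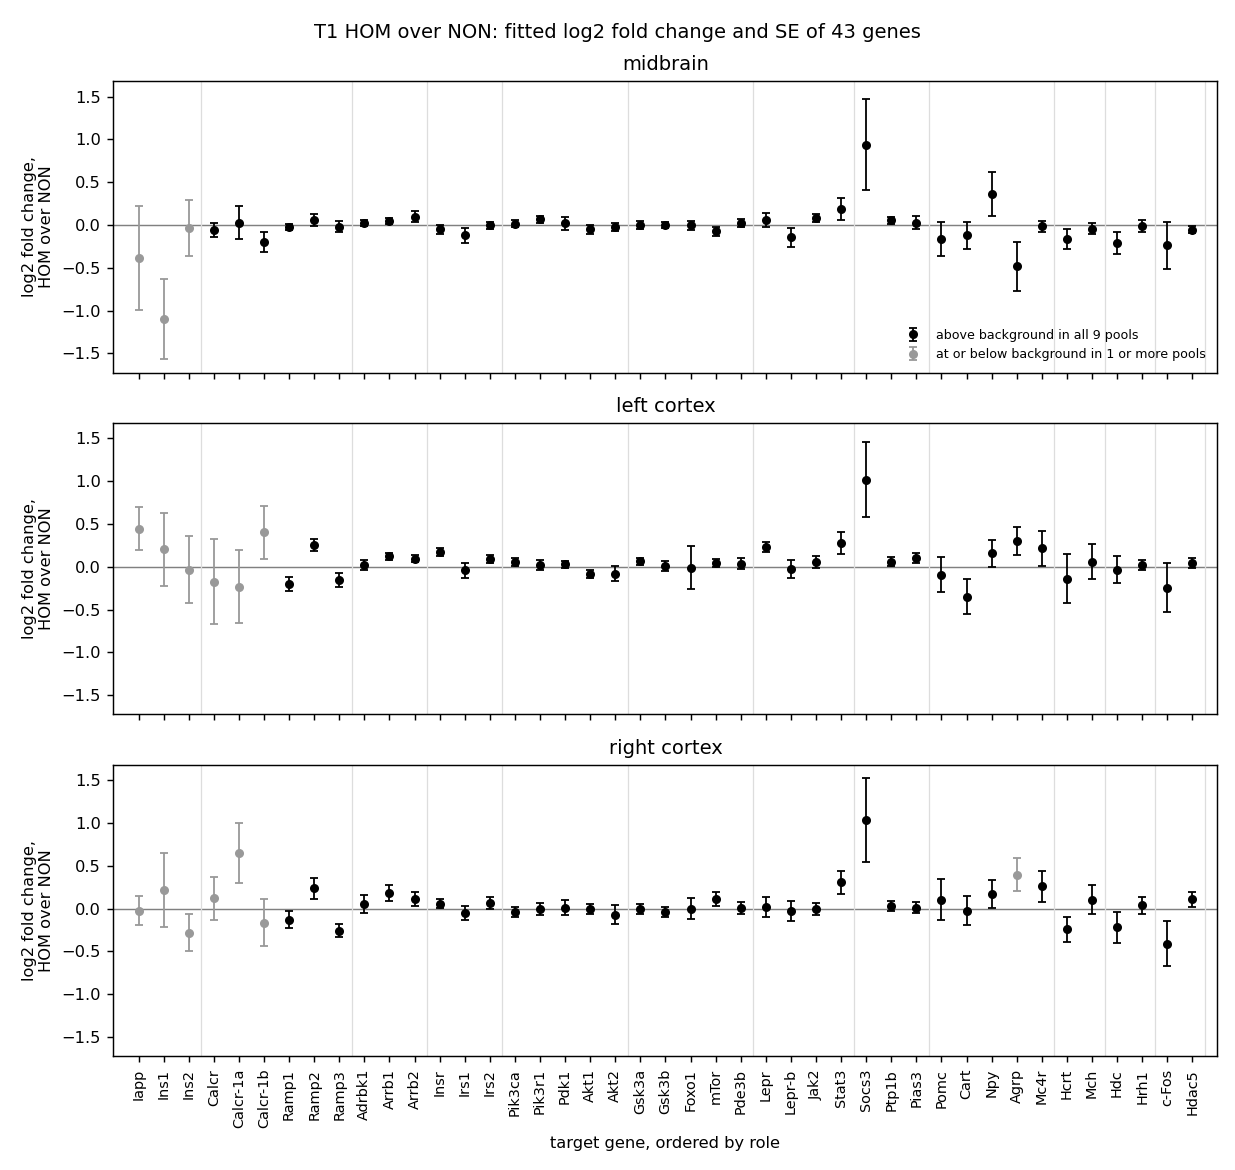
Fitted log2 fold-change of HOM over NON with its SE for the 43 target genes, ordered by role, in each region at T1 (4 HOM and 5 NON pools); grey points are genes at or below background in at least 1 pool. Socs3 stands at 0.94, 1.02 and 1.03 with wide errors, and most genes that are above background lie close to 0.

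Socs3, the inhibitor of leptin and insulin signals, was far higher in 1 HOM pool than in any other pool. In the midbrain its normalised counts were 66.3 and 52.2 in HOM AM, 279.6 and 47.2 in HOM PM, 61.0 and 67.9 in NON AM, and 51.7, 53.1 and 43.5 in NON PM. The left cortex gave 105 and 124 in HOM AM, 326 and 70.1 in HOM PM, 72.8 and 103 in NON AM, and 54.7, 69.5 and 84.8 in NON PM. The right cortex gave 129 and 109.8 in HOM AM, 515 and 92.4 in HOM PM, 109 and 116 in NON AM, and 85.6, 71.0 and 112 in NON PM. In all 3 regions 1 HOM PM pool, pool 1/5, was far above the other 8 pools. The other 3 HOM pools overlapped the NON pools in the midbrain and right cortex, and in the left cortex both HOM AM pools were also above all NON pools, while HOM PM pool 8/9 lay among them. Pool 1/5 was 4.12 times the highest of the other 8 pools for the midbrain, 2.63 times for the left cortex and 3.99 times for the right cortex.

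The group means of Socs3 were 111 ± 112 (SD, n = 4) in HOM and 55.5 ± 9.31 (SD, n = 5) in NON for the midbrain, 156 ± 115 (SD, n = 4) in HOM and 77.0 ± 18.2 (SD, n = 5) in NON for the left cortex, and 212 ± 203 (SD, n = 4) in HOM and 98.8 ± 19.6 (SD, n = 5) in NON for the right cortex. The fitted log2 fold-changes were 0.94 (SE 0.53), 1.02 (SE 0.44) and 1.03 (SE 0.49), with 95% intervals of -0.28 to 2.15, 0.022 to 2.01 and -0.078 to 2.15. Their adjusted p, by edgeR's quasi-likelihood test adjusted by Benjamini-Hochberg, was 0.595, 0.292 and 0.566. Without HOM pool 1/5 the log2 fold-change of Socs3 was -0.11 for the midbrain, 0.22 for the left cortex and 0.063 for the right cortex. The PM effect of HOM minus the AM effect on Socs3 was 1.84 (SE 0.93, adjusted p = 0.213) for the midbrain, 1.15 (SE 0.84, adjusted p = 0.982) for the left cortex and 1.67 (SE 0.88, adjusted p = 0.643) for the right cortex by the same test. Without HOM pool 1/5 these differences were 0.068, -0.34 and -0.053, and without HOM pool 8/9, with pool 1/5 the lone HOM PM pool, 2.63, 1.87 and 2.42, which passed edgeR's test in each region (adjusted p = 0.00111, 0.0368 and 0.00110) on an arm of that 1 pool. For the effect over both times, leaving out any other single pool kept the log2 fold-change of Socs3 between 0.80 and 1.30 over the 3 regions.

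**Figure D2:**
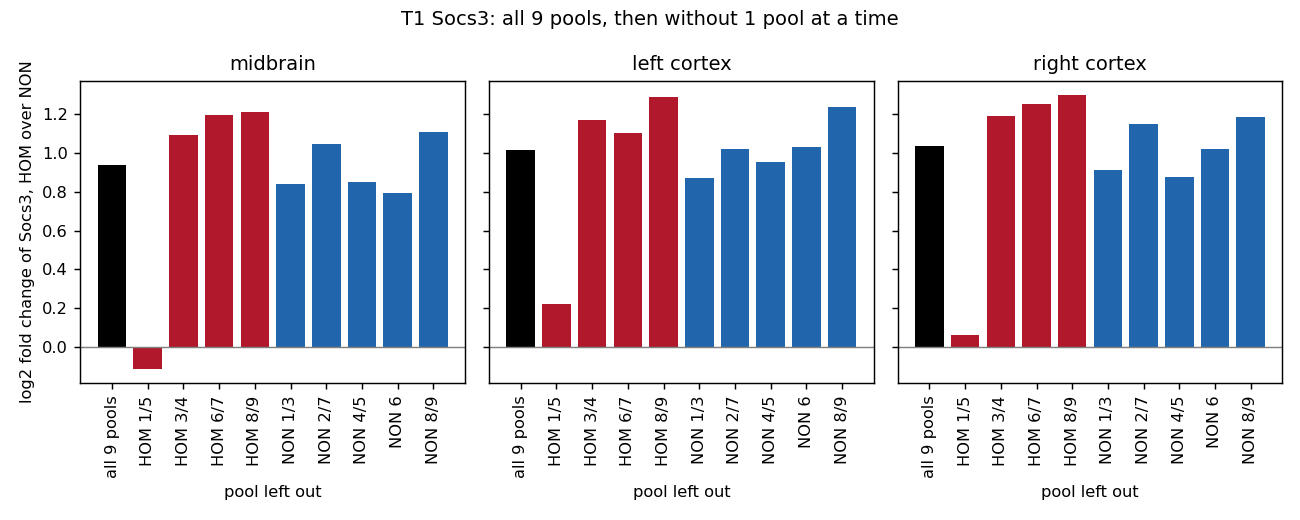
Log2 fold-change of Socs3, HOM over NON, in each region with all 9 pools (black) and with 1 pool left out at a time (red, HOM pools; blue, NON pools). Without HOM pool 1/5 the value is -0.11 for the midbrain, 0.22 for the left cortex and 0.063 for the right cortex.

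The promoter of Socs3, a gene chosen here after its values were seen, is shown because Stat3, the factor known to induce it, is also on the panel. Whether Stat3 had a part in the Socs3 values was not tested. RefSeq places the 250 bases before the Socs3 start at chr11:117969367-117969616, minus strand, of GRCm38.p6, and they read 5′ to 3′ with the match to TTCNNNGAA, the STAT-type motif, in capitals:
Socs3: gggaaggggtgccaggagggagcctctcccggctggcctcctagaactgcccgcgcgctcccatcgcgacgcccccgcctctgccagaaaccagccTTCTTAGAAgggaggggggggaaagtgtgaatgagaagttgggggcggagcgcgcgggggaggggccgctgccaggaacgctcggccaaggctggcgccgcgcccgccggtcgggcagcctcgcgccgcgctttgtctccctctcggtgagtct
The match spans the bases 154 to 146 before the start, and it reads alike in pattern on both strands. TTCNNNGAA occurred in the 250 bases before the start in 7.02% of 32851 RefSeq promoters. A window was held for 31 genes of the panel, and 4 of them, Socs3, Akt2, Mch and mTor, had a match. Npy and Stat3, which were also highest in pool 1/5 in the 3 regions, had a window and no match. A match is a description of the letters and not a binding site shown by these data.

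Stat3, the transcription factor of the leptin signal, was highest in the same pool. The midbrain pools were at 4421 and 4581 in HOM AM, 6629 and 4319.7 in HOM PM, 4581 and 4662 in NON AM, and 4316, 4259 and 4084 in NON PM. Left cortex pools were at 7017 and 6690.5 in HOM AM, 10004 and 6179 in HOM PM, 6321 and 6150.4 in NON AM, and 6053, 6207 and 6185 in NON PM. Right cortex pools were at 7727 and 7386 in HOM AM, 11211 and 6968 in HOM PM, 7306 and 7045 in NON AM, and 6724, 6167 and 6437 in NON PM. Without pool 1/5, HOM and NON overlapped in the 3 regions, and in both cortices the 2 HOM AM pools were above all NON pools. The log2 fold-change of Stat3 was 0.19 (SE 0.13), 0.28 (SE 0.13) and 0.31 (SE 0.14), and -0.0071, 0.081 and 0.091 without pool 1/5. The adjusted p with all pools, by edgeR's quasi-likelihood test, was 0.595, 0.292 and 0.566.

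Npy, the neuropeptide that promotes feeding from the hypothalamus, showed the same pool on top. Its normalised counts in the midbrain were 16120.0 and 15119 in HOM AM, 39468 and 17772 in HOM PM, 18381 and 16786 in NON AM, and 15660.0, 19824 and 14258 in NON PM. For the left cortex they were 73313 and 64629 in HOM AM, 103897 and 58957 in HOM PM, 69977 and 63344 in NON AM, and 62216, 79554 and 64517 in NON PM. For the right cortex they were 69244 and 72836 in HOM AM, 113584 and 62615 in HOM PM, 75673 and 71110.4 in NON AM, and 67202, 77433 and 61787 in NON PM. Pool 1/5 was 1.99 times the highest other pool for the midbrain, 1.31 times for the left cortex and 1.47 times for the right cortex. The log2 fold-change of Npy was 0.36 (SE 0.26), 0.16 (SE 0.16) and 0.17 (SE 0.17), with adjusted p of 0.595, 0.682 and 0.761 by edgeR's quasi-likelihood test. Without pool 1/5 its sign turned in all 3 regions, to -0.053, -0.065 and -0.085.

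**Figure D3:**
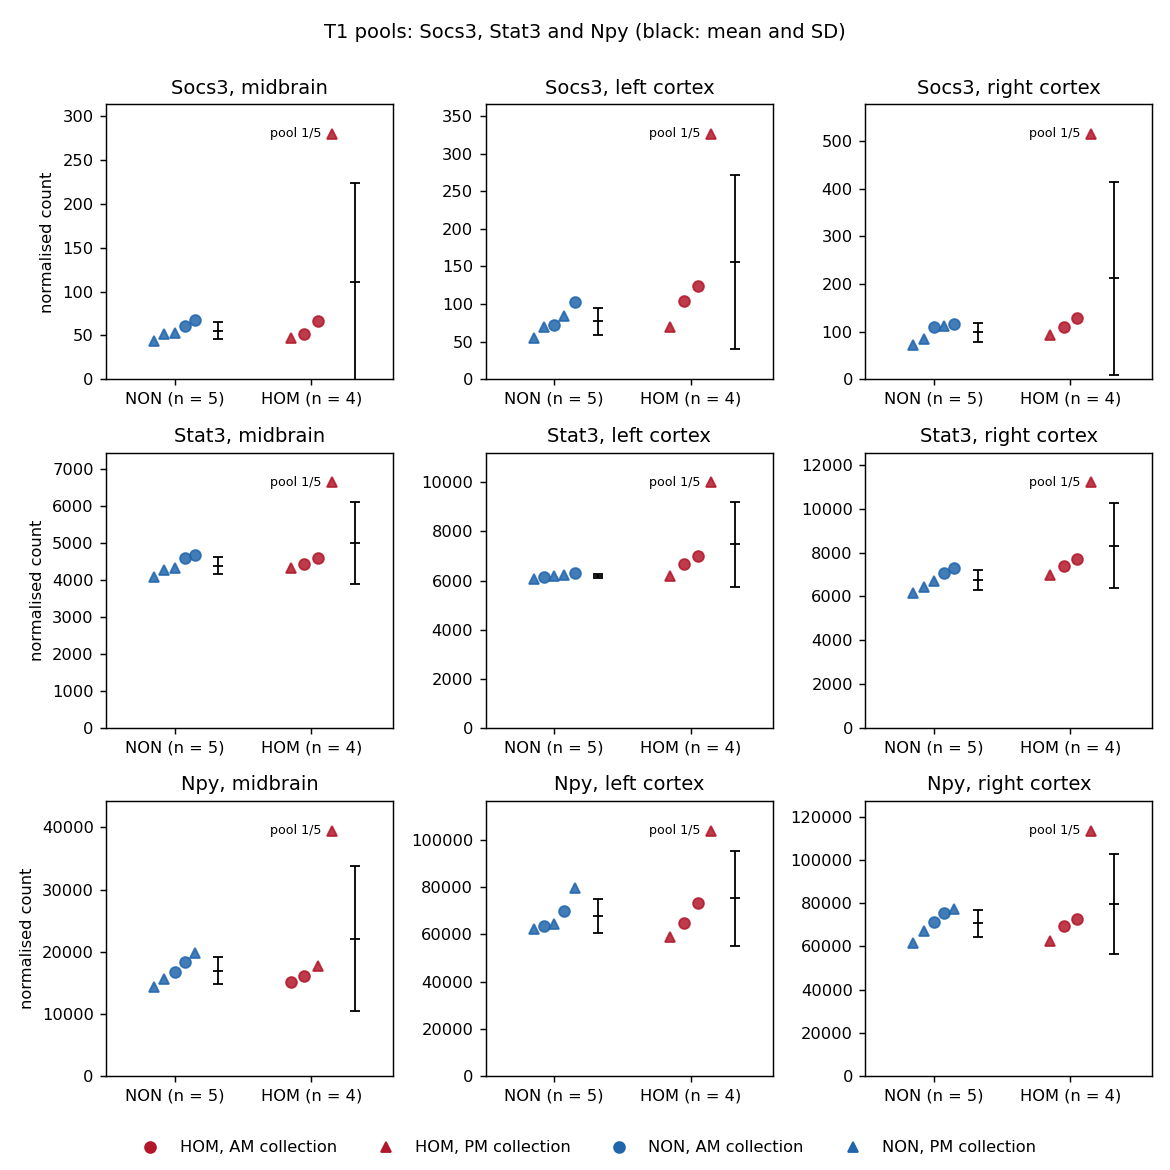
Normalised counts of Socs3, Stat3 and Npy in each T1 pool of the midbrain and both cortices (circles AM, triangles PM; black bars, mean and SD; 5 NON and 4 HOM pools). HOM PM pool 1/5 is the highest pool in every panel, with Socs3 at 279.6, 326 and 515.

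Of the 36 genes above background in all 27 pools, Npy, Socs3 and Stat3 were the 3 that were highest in pool 1/5 in all 3 regions, and Akt1, a kinase of the insulin cascade, was the 1 that was lowest there in all 3. Of the other 8 pools, HOM AM pool 6/7 was highest in all 3 regions for 2 genes (Irs2 and Ptp1b), NON AM pool 8/9 for 1 (c-Fos), and HOM PM pool 8/9 was lowest for 1 (c-Fos). These genes were picked after their values were seen. The hindbrain pool labelled HOM 1/5 did not share the pattern. There Socs3 was at 63.7 and 50.1 in HOM AM, 17.8 and 33.0 in HOM PM, 142 and 33.9 in NON AM, and 27.7, 37.6 and 59.3 in NON PM, with pool 1/5 the lowest of 9 and the 1 pool not above its background (18.5 on the normalised scale), and Npy and Stat3 were at 3927 and 3732 in pool 1/5 against 3314 to 4010.5 and 3748 to 4175 in the other 8 pools. The HOM effect on Socs3 in the midbrain, left cortex and right cortex minus that in the hindbrain was 1.04 (SE 0.57, adjusted p = 0.584), 1.20 (SE 0.56, adjusted p = 0.361) and 1.18 (SE 0.56, adjusted p = 0.470) by edgeR's quasi-likelihood test with the pool number as a block, and these differences use the hindbrain value of pool 1/5 that was not above background. Over the panel, 0 genes (0.0%) were called in each of these 3 differences, and 2 (4.65%), 5 (11.6%) and 4 (9.3%) had an unadjusted p under 0.05, with 0 calls by DESeq2. Without pool 1/5 the differences in Socs3 were 0.32, 0.66 and 0.51. Hindbrain pool 1/5 was also the lowest for Cart, at 789 against 1895 to 3092 in the other pools. It was lowest there for c-Fos (1855 against 1937 to 7423) and Pomc (74.3 against 93.0 to 370) too. Cart was also lowest in pool 1/5 in the midbrain and right cortex, but not in the left cortex.

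Of the other inhibitors of these signals, Ptp1b, the phosphatase that acts on the insulin and leptin receptor complexes, had log2 fold-changes of 0.055 (SE 0.041), 0.061 (SE 0.057) and 0.035 (SE 0.058), and Pias3, an inhibitor of Stat3, of 0.026 (SE 0.075), 0.10 (SE 0.056) and 0.012 (SE 0.067). Neither passed the test. Lepr-b, the signalling form of the leptin receptor, was at -0.15 (SE 0.11), -0.025 (SE 0.11) and -0.029 (SE 0.11), and Jak2, the kinase bound to it, at 0.079 (SE 0.044), 0.054 (SE 0.070) and -0.0060 (SE 0.071). The 3 inhibitors had a median log2 fold-change of 0.055, 0.10 and 0.035, and the 4 genes of the leptin receptor and Jak-Stat list of 0.069, 0.14 and 0.0065. Of these 7, edgeR's main fit called 0 in any region, and DESeq2 called Lepr in the left cortex.

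In the left cortex, 3 of 43 genes (6.98%) had every HOM pool above every NON pool, and 0 (0.0%) had every HOM pool below. They were Lepr, the leptin receptor, Insr, the insulin receptor, and Arrb1, an arrestin that uncouples receptors from G proteins. In the midbrain and the right cortex, 0 of 43 genes (0.0%) were free of overlap in either direction. Lepr in the left cortex was at 2602 and 2500.3 in HOM AM, 2930.2 and 2745 in HOM PM, 2366 and 2127 in NON AM, and 2447, 2171 and 2459 in NON PM. Insr was at 4289 and 4379 in HOM AM, 4379 and 4218 in HOM PM, 3936 and 3925 in NON AM, and 3959, 3535 and 3768 in NON PM. Arrb1 was at 30093 and 29206 in HOM AM, 31400.3 and 28883 in HOM PM, 28485 and 27147 in NON AM, and 27736, 27181 and 26686 in NON PM. For each, the lowest HOM pool lay above the highest NON pool by less than the range of the NON pools, and AM and PM pools were mixed. Ramp2, the RAMP subunit best known from the adrenomedullin receptor, was at 2838 and 2954 in HOM AM, 2641 and 3022 in HOM PM, 2266 and 2328 in NON AM, and 2732, 2480.3 and 2239 in NON PM, with HOM PM pool 1/5 below NON PM pool 1/3.

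The log2 fold-changes in the left cortex were 0.23 (SE 0.061), 95% interval 0.091 to 0.37, for Lepr, 0.17 (SE 0.045), 95% interval 0.067 to 0.27, for Insr, 0.12 (SE 0.040), 95% interval 0.032 to 0.21, for Arrb1, and 0.25 (SE 0.073), 95% interval 0.088 to 0.42, for Ramp2. None passed edgeR's quasi-likelihood test, with adjusted p of 0.104, 0.104, 0.148 and 0.108. DESeq2 called these 4, with adjusted p of 0.00570, 0.00278, 0.0202 and 0.0209. The geometric mean of the reference genes over that of the positive control probes was 19.1 ± 2.55 (SD, n = 4) in HOM and 14.9 ± 1.57 (SD, n = 5) in NON of the left cortex, and its part in these values was not tested. When pools were scaled by their positive control probes, the median log2 fold-change over the 43 genes of the left cortex moved to 0.41, and edgeR called 25 genes, all higher in HOM, while in the right cortex the median moved to 0.15 with 0 calls. That scaling uses no reference gene, so the higher ratio in HOM enters the value of every gene of the left cortex. Socs3, Stat3 and Npy were among the 25, at 1.41, 0.66 and 0.54 on the log2 scale, with adjusted p of 0.0107, 0.00709 and 0.0107 by edgeR's test. With TMM, which scales on the 43 genes themselves, Lepr was at 0.16, Insr at 0.099, Arrb1 at 0.049 and Ramp2 at 0.18, and 0 genes were called. Scaling without the third reference gene put Lepr at 0.26, Insr at 0.20 and Arrb1 at 0.15. These 3 genes then passed edgeR's test, with adjusted p of 0.0424, 0.0424 and 0.0450.

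In the right cortex the values of the same genes overlapped between HOM and NON. Lepr was at 3853 and 2973 in HOM AM, 2982 and 3099 in HOM PM, 3169.9 and 3265 in NON AM, and 2539.6, 3507 and 3308 in NON PM there, with a log2 fold-change of 0.019 (SE 0.11) and a 95% interval of -0.23 to 0.27. Insr, Arrb1 and Ramp2 had log2 fold-changes of 0.058 (SE 0.054), 0.18 (SE 0.092) and 0.24 (SE 0.12) in the right cortex, and of -0.051 (SE 0.049), 0.046 (SE 0.039) and 0.054 (SE 0.070) in the midbrain. In the T1 hindbrain, Lepr, Insr, Arrb1 and Ramp2 were at -0.070, 0.049, 0.11 and 0.21. Their adjusted p there was 0.701, 0.679, 0.277 and 0.193 by edgeR's quasi-likelihood test. The HOM effect in the right cortex minus that in the left cortex was -0.21 (SE 0.13, adjusted p = 0.979) for Lepr and -0.11 (SE 0.068, adjusted p = 0.979) for Insr by edgeR's quasi-likelihood test, so a difference between the cortices was not shown.

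**Figure D4:**
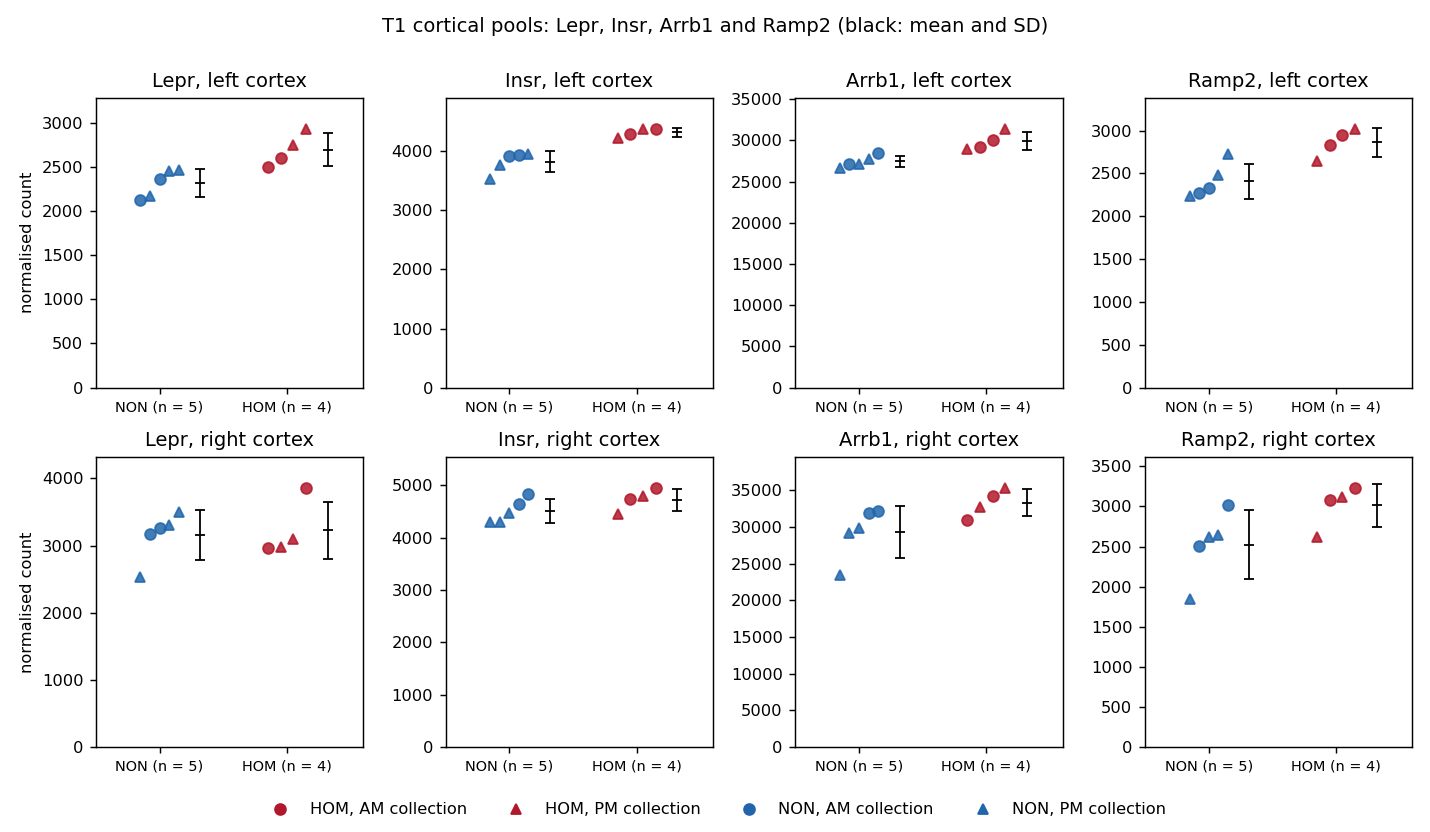
Normalised counts of Lepr, Insr, Arrb1 and Ramp2 in each T1 pool of the left cortex (upper row) and right cortex (lower row; circles AM, triangles PM; black bars, mean and SD; 5 NON and 4 HOM pools). In the left cortex the lowest HOM pool of Lepr (2500.3) is above the highest NON pool (2459), and in the right cortex the groups overlap.

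Cart, a peptide that reduces feeding, was the gene whose HOM effect in the midbrain differed between collection times. Midbrain Cart was at 5543 and 6152 in HOM AM, 3112 and 3645 in HOM PM, 5139 and 4314 in NON AM, and 4674, 4635 and 4926 in NON PM. Both HOM AM pools were above both NON AM pools, and both HOM PM pools were below all 3 NON PM pools. The log2 fold-change was 0.31 (SE 0.11) in AM and -0.49 (SE 0.098) in PM, with adjusted p of 0.437 and 0.0509 by edgeR's quasi-likelihood test. The PM effect minus the AM effect was -0.80 (SE 0.14, adjusted p = 0.0270) by that test, the 1 call among 43 genes (2.33%), against 12 genes (27.9%) at an unadjusted p under 0.05. DESeq2 and TMM also called Cart alone. With both times together the log2 fold-change of Cart was -0.12 (SE 0.15), with an adjusted p of 0.784 by edgeR's test.

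The AM and PM arms of HOM held 2 pools each, and leaving out 1 pool ended the call of Cart in 6 of 9 cases. The adjusted p by edgeR's quasi-likelihood test rose to 0.0960 without NON pool 1/3, 0.0622 without NON pool 4/5, 0.0972 without NON pool 6, 0.0520 without NON pool 8/9, 0.0528 without HOM pool 3/4, 0.147 without HOM pool 6/7, and the difference stayed between -0.93 and -0.68 with each of the 9 pools left out. Without HOM pool 1/5 it was -0.69 (adjusted p = 0.0141), and edgeR then called 5 genes, Arrb2, Gsk3a, Pdk1 and Pias3 beside Cart. Without HOM pool 8/9 it called 4, Socs3, Stat3, Npy and Cart, with Cart at -0.92, and in both cases the lone HOM PM pool was assumed to vary like the other groups.

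Values of the hypothalamic markers are set beside Cart here. Their summed normalised count, which is mostly that of the Mch probe, was 26491 and 27603 in HOM AM, 22045 and 22879 in HOM PM, 27069 and 23741 in NON AM, and 25332, 23721 and 26773 in NON PM, so that the HOM PM pools were the lowest of 9. Pomc was at 354 and 344 in HOM AM, 197 and 218 in HOM PM, 226 and 349 in NON AM, and 339, 296 and 281 in NON PM. Hcrt was at 832 and 906 in HOM AM, 714 and 609 in HOM PM, 814 and 812 in NON AM, and 914, 736 and 933 in NON PM. For Pomc, Hcrt, Hdc and Mch both HOM PM pools were below all NON PM pools, and for Agrp they overlapped. This order was not particular to the markers. Calcr, Mc4r and Ramp3, which are not on the marker list, also had both HOM PM pools below all NON PM pools. Arrb1, Ptp1b and Stat3 had both above. How many of the 43 genes had both HOM PM pools below all NON PM pools was not counted. The marker values are therefore a description only. The part of these markers in the Cart result was not tested.

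The PM effect minus the AM effect of the markers did not pass edgeR's quasi-likelihood test. It was -0.83 (SE 0.27, adjusted p = 0.130) for Pomc, -0.48 (SE 0.17, adjusted p = 0.130) for Hcrt, -0.51 (SE 0.19, adjusted p = 0.130) for Hdc, -0.24 (SE 0.11, adjusted p = 0.180) for Mch and -0.77 (SE 0.54, adjusted p = 0.353) for Agrp. Without NON pool 8/9, Pomc was at -1.18 and passed, with an adjusted p of 0.0305 by the same edgeR test, and without NON pool 2/7 it was at -0.56 (adjusted p = 0.201), and its adjusted p reached 0.347 with 1 other pool left out. Mc4r, the receptor for the peptides cut from Pomc, was at -0.28 (SE 0.092, adjusted p = 0.130). In both cortices the same test called 0 of 43 genes (0.0%), and left and right cortex had 0 and 1 genes with an unadjusted p under 0.05, and DESeq2 called 0. Without HOM pool 8/9, edgeR called 2 genes in the left cortex (Socs3 and Stat3) and 3 in the right (Socs3, Stat3 and Npy), with pool 1/5 as the lone HOM PM pool. Cart was at -0.14 (SE 0.43, adjusted p = 0.982) for the left cortex and -0.14 (SE 0.36, adjusted p = 0.863) for the right.

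**Figure D5:**
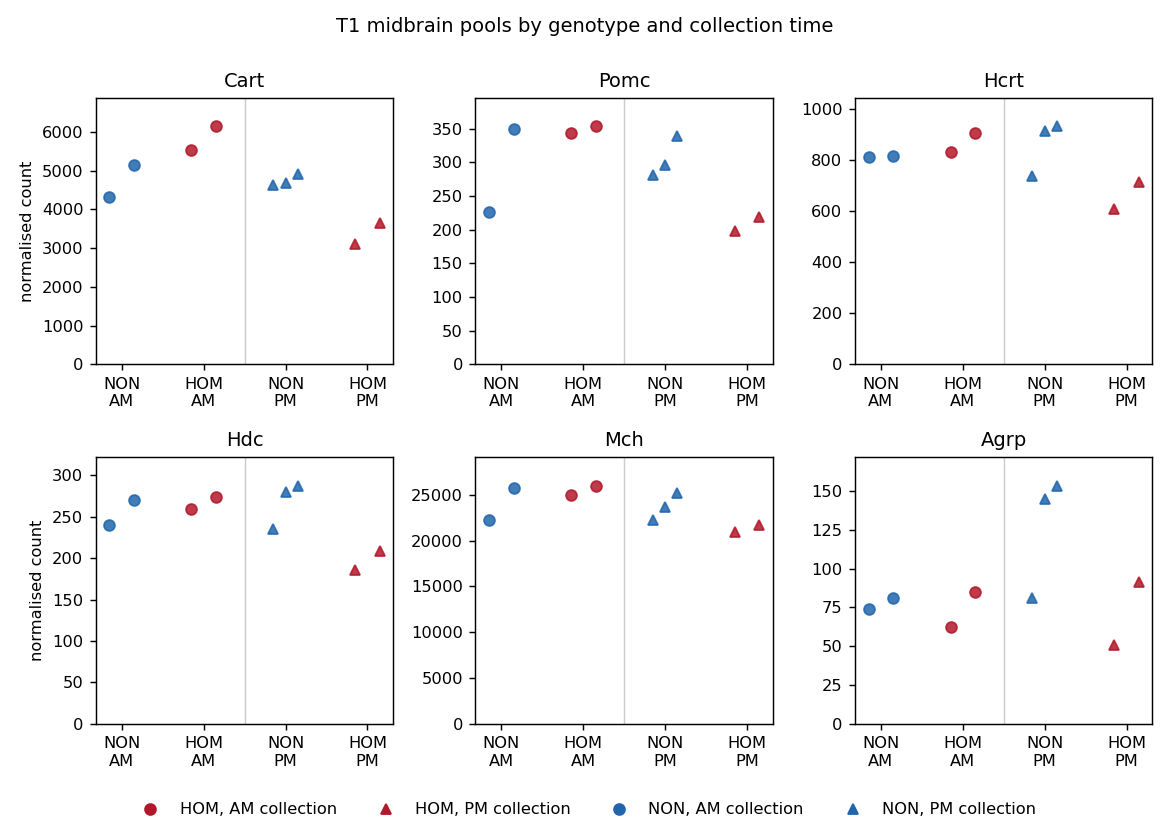
Normalised counts of Cart and of the 5 hypothalamic markers in each T1 midbrain pool, split by genotype and collection time (2 NON AM, 2 HOM AM, 3 NON PM and 2 HOM PM pools). Cart in the HOM PM pools is at 3112 and 3645, below all NON PM pools, and Pomc, Hcrt, Hdc and Mch are also below all NON PM pools there. Calcr, Mc4r and Ramp3, which are not markers and not shown, had the same order.

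Agrp, which is made by the hypothalamic neurons that promote feeding, was at 62.2 and 85.3 in HOM AM, 50.8 and 91.1 in HOM PM, 73.9 and 80.9 in NON AM, and 145, 153 and 81.0 in NON PM in the midbrain. Its highest pools were NON PM pools 1/3 and 4/5, and the groups overlapped. The log2 fold-change of Agrp was -0.48 (SE 0.29) for the midbrain, 0.30 (SE 0.16) for the left cortex and 0.40 (SE 0.19) for the right cortex, with adjusted p of 0.595, 0.359 and 0.566 by edgeR's quasi-likelihood test. Leaving out 1 pool gave -0.66 (HOM pool 6/7) to -0.25 (HOM pool 1/5) for midbrain Agrp, and 0.17 (HOM pool 8/9) to 0.52 (HOM pool 1/5) for right cortex Agrp. Cortical Agrp was close to background, at 27 to 60 raw counts (left) and 28 to 74 (right). Pomc, with both times together, was at -0.16 (SE 0.20), -0.091 (SE 0.20) and 0.10 (SE 0.24), and Cart in the cortices at -0.35 (SE 0.20) and -0.025 (SE 0.17). With 1 pool left out, midbrain Pomc ran from -0.35 (NON pool 2/7) to -0.028 (HOM pool 1/5). Left cortex Cart ran from -0.44 (NON pool 2/7) to -0.17 (NON pool 6). Of the 5 genes of the melanocortin and appetite peptide list, edgeR's main fit called 0 in any region, with a median of -0.12, 0.16 and 0.17. Scaled by the positive control probes, edgeR called Agrp (0.67, adjusted p = 0.0470), Npy (0.54, adjusted p = 0.0107) and Mc4r in the left cortex.

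The hormones themselves were at the limit of detection. Ins1, 1 of the insulin genes of the mouse, was at 12.4 and 17.1 in HOM AM, 10.9 and 16.9 in HOM PM, 22.2 and 47.9 in NON AM, and 42.4, 28.3 and 11.1 in NON PM in the midbrain, where it was above background in 3 of 9 pools, all NON, and in none of the 4 HOM pools. Its fitted log2 fold-change was -1.10 (SE 0.47), with an unadjusted p of 0.0454 and an adjusted p of 0.595 by edgeR's quasi-likelihood test. Because all HOM pools were at or under background, the fitted value is not a measured fold. Iapp, the gene of amylin, was at 11.1 and 19.1 in HOM AM, 69.0 and 18.0 in HOM PM, 24.0 and 25.2 in NON AM, and 37.3, 97.7 and 14.2 in NON PM in the midbrain, above background in 4 of 9 pools and highest in NON PM pool 4/5 and HOM PM pool 1/5. In the left and right cortex, Iapp was above background in 1 and 2 of 9 pools. The study could not assign its amylin signal in brain to the mouse gene or to the transgene, and these counts do not separate them either. The 3 hormone genes had 0 calls in any region, and none of them was above background in all 9 pools of a region.

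Calcr, the calcitonin receptor that forms the core of amylin receptors, was well above background in the midbrain, at 868 and 919 in HOM AM, 691 and 802 in HOM PM, 885 and 793 in NON AM, and 819.8, 875 and 851 in NON PM. HOM PM pool 1/5 was the lowest and the groups overlapped. The log2 fold-change of Calcr was -0.058 (SE 0.077) in the midbrain, with a 95% interval of -0.23 to 0.12 and an adjusted p of 0.784 by edgeR's quasi-likelihood test. In each cortex Calcr was above background in 5 of 9 pools, with 13 to 84 raw counts (left) and 14 to 48 (right), and its log2 fold-change was -0.18 (SE 0.50) and 0.12 (SE 0.25). Calcr-1a, a form of the same receptor, was above background in all 9 midbrain pools and in 0 of 9 pools of each cortex. Ramp3, which joins the calcitonin receptor in one of the amylin receptors, was at 1395 and 1557 in HOM AM, 1350.0 and 1349.9 in HOM PM, 1725 and 1823 in NON AM, and 1560.0, 1479.8 and 1776 in NON PM in the right cortex.

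The Ramp3 values of HOM in the right cortex were 1413 ± 98.1 (SD, n = 4) against 1673 ± 147 (SD, n = 5) in NON, and HOM AM pool 6/7 overlapped NON PM pool 4/5. The log2 fold-change was -0.26 (SE 0.077), with an adjusted p of 0.372 by edgeR's quasi-likelihood test and 0.0405 by DESeq2. It was -0.15 (SE 0.081) in the left cortex and -0.019 (SE 0.068) in the midbrain. Ramp1, the subunit of the other main amylin receptor, was at -0.025 (SE 0.038), -0.20 (SE 0.082) and -0.13 (SE 0.10) in the midbrain, left and right cortex, with an unadjusted p of 0.0414 in the left cortex by edgeR's test across all genes. Of the 6 genes of the amylin and calcitonin receptor list, edgeR's main fit called 0 in any region, with a median of -0.022, -0.16 and -0.0045. DESeq2 called Ramp2 of this list in the left cortex and Ramp3 in the right cortex.

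c-Fos, the immediate early gene used as a marker of neuronal activity, varied widely within both groups. Right cortex pools were at 10420.3 and 11145 in HOM AM, 8887 and 3489 in HOM PM, 10773 and 13790.4 in NON AM, and 10528, 6899 and 10619 in NON PM, and HOM PM pool 8/9 was the lowest and NON AM pool 8/9 the highest there and in the left cortex and midbrain. The log2 fold-change of c-Fos was -0.24 (SE 0.28), -0.24 (SE 0.28) and -0.41 (SE 0.26), with 95% intervals of -0.87 to 0.39 in the midbrain and -0.88 to 0.40 in the left cortex. The adjusted p by edgeR's quasi-likelihood test was 0.784, 0.741 and 0.698. Without HOM pool 8/9 the values were -0.022, -0.015 and -0.14, and without HOM pool 1/5 they were -0.61, -0.59 and -0.68.

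The genes of the insulin cascade lay close to 0 in the 3 regions. The kinases Pik3ca, Akt1 and Akt2, the regulatory subunit Pik3r1 and the gene listed as Pdk1 lay between -0.052 and 0.065 for the midbrain, -0.082 and 0.053 for the left cortex, and -0.069 and 0.013 for the right cortex, on the log2 scale of HOM over NON. The probe listed as Pdk1 matches, by its accession, the RefSeq gene of pyruvate dehydrogenase kinase 1, while the study lists it as 3-phosphoinositide dependent kinase-1. The downstream targets Gsk3a, Gsk3b, Foxo1, mTor and Pde3b lay between -0.075 and 0.026, -0.011 and 0.063, and -0.038 and 0.11. Of these 10 genes, edgeR's main fit called 0, and 0 had an unadjusted p under 0.05 in any region. The panel's share at that cut was 2.33%, 14.0% and 2.33% in the midbrain, left and right cortex. Scaled by the positive control probes, Akt1, Gsk3a, Gsk3b, Pde3b, Pdk1, Pik3ca, Pik3r1 and mTor were among the 25 genes called in the left cortex. The docking proteins of the insulin receptor, Irs1 and Irs2, were at -0.12 (SE 0.086) and -0.0049 (SE 0.044) for the midbrain, -0.041 (SE 0.089) and 0.092 (SE 0.049) for the left cortex, and -0.054 (SE 0.080) and 0.067 (SE 0.071) for the right cortex. The medians of the remaining lists were -0.10, -0.038 and -0.069 for Hcrt and Mch, -0.11, -0.0035 and -0.090 for Hdc and Hrh1, and 0.046, 0.097 and 0.11 for Adrbk1, Arrb1 and Arrb2, which uncouple receptors.

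Collection time separated some genes that genotype did not. With both genotypes in one set, AM and PM pools did not overlap for 3 genes higher in AM (6.98%) and 1 higher in PM (2.33%) for the midbrain, 5 and 0 (11.6% and 0.0%) for the left cortex, and 6 and 0 (14.0% and 0.0%) for the right cortex. Irs2 and Ptp1b were among them in all 3 regions, and both were picked after their values were seen. Irs2 was at 5270.1 to 5949 in the 4 AM pools and 3169 to 3619 in the 5 PM pools of the left cortex, 5683 to 6297 in the 4 AM pools and 3139 to 3799 in the 5 PM pools of the right cortex, and 3374 to 3539.8 in the 4 AM pools and 2763 to 3024 in the 5 PM pools of the midbrain. Ptp1b was at 12321 to 14158 in the 4 AM pools and 8580.4 to 9783 in the 5 PM pools of the left cortex. The ratio of the AM mean to the PM mean was 1.19, 1.59 and 1.66 for Irs2 and 1.20, 1.42 and 1.42 for Ptp1b in the midbrain, left and right cortex. Irs1, the other docking protein, and Hrh1, a histamine receptor, were higher in all AM pools of both cortices, and Hdac5, a histone deacetylase, of the midbrain and left cortex. No test of collection time was run.

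The HOM effect was not shown to differ between regions or between time points. For the left cortex against the midbrain, the right cortex against the midbrain and the right against the left cortex, edgeR's quasi-likelihood test called 0 genes (0.0%) each, the numbers at an unadjusted p under 0.05 were 1, 2 and 0, and DESeq2 called 1, 0 and 0. The gene called by DESeq2 was Insr, for the left cortex against the midbrain. At T2, which the study set at the onset of diabetes, 5 HOM and 7 NON pools of each region were measured, with mice 100 to 246 days old in HOM and 90 to 286 in NON, so that T2 minus T1 also spans these ages. Socs3 had log2 fold-changes at T2 of 1.10 (SE 0.47), 0.82 (SE 0.45) and 0.75 (SE 0.45) in the midbrain, left and right cortex. T2 minus T1 was 0.17 (SE 0.73, adjusted p = 0.948), -0.19 (SE 0.69, adjusted p = 0.845) and -0.28 (SE 0.69, adjusted p = 0.906) by edgeR's test, with 0 genes (0.0%) called in any region, 2, 9 and 1 at an unadjusted p under 0.05, and 0 by DESeq2. The Socs3 difference rested on single pools: it was -0.77, -1.17 and -1.16 without T2 HOM pool 6/9 and 1.22, 0.60 and 0.69 without T1 HOM pool 1/5. Lepr in the left cortex, higher in HOM at T1, was at -0.23 (SE 0.10) at T2, with an adjusted p of 0.194 by edgeR's test. T2 minus T1 of Lepr there had an adjusted p of 0.206 by the same test, the lowest of the panel.

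Hemizygous mice (HEM), which carry the transgene on 1 chromosome of the pair and were 99 to 100 days old at T1, were labelled PM in 2 pools of the midbrain and right cortex and 1 pool of the left cortex, and were set against the 2 HOM PM pools. In the midbrain, edgeR's quasi-likelihood test called 2 of 43 genes (4.65%), both lower in HOM. At an unadjusted p under 0.05 there were 9 (20.9%), all lower in HOM. Cart was at 4956 and 5552 in HEM and 3112 and 3645 in HOM, a difference of -0.64 (SE 0.094, adjusted p = 0.0182) on the log2 scale. Mc4r was at 1302 and 1246 in HEM and 975 and 942 in HOM, a difference of -0.41 (SE 0.080, adjusted p = 0.0407). The PM pools of HEM and HOM did not overlap for either gene. HEM pool 8 held the RNA of 1 mouse. Of the hypothalamic markers, Pomc was at 259 and 409 in HEM PM and 197 and 218 in HOM PM. Agrp overlapped, at 64.9 and 98.5 in HEM PM and 50.8 and 91.1 in HOM PM. The other markers, Hcrt, Hdc and Mch, are not given for HEM, so the list as a whole was not compared. The part of these markers in the 2 calls was not tested. The 3 HEM pools without a collection time, which were not tested, had Cart at 5041, 4591 and 3152 and Mc4r at 957, 1195 and 1021, so that pool 5/6 for Cart and pool 1/2 for Mc4r lay in the range of the HOM PM pools. Both calls were lost without HEM pool 9/10 (adjusted p = 0.121 for each) and without NON pool 6 (0.0646 and 0.0727), which the fit uses for its spread. That of Mc4r was also lost without HEM pool 8 (0.157), NON pool 4/5 (0.116) and HOM pools 1/5 (0.0722) and 8/9 (0.0591), and without HOM pool 8/9 edgeR called 6 genes. DESeq2 called 2 genes. With TMM, edgeR called 1 gene, and the call of Mc4r was lost, at -0.32 (adjusted p = 0.0789 by edgeR's test).

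In the left cortex the HEM arm was 1 pool, so HOM against HEM is given there as a description. Lepr was at 1513 in that pool and 2930.2 and 2745 in HOM, a log2 difference of 0.91. The left cortex HEM pools without a collection time had Lepr at 2749.7, 2243 and 2579, all above that pool and 1 of them within the range of the HOM PM pools, so that the difference is from a single pool and was not shown for HEM as a group. Lepr was the 1 gene (2.33%) past the threshold in a fit that borrowed the spread of the HOM and NON pools, it was lost in 3 of 5 fits with 1 further pool left out, and nothing is read from it or from the 8 genes (18.6%) at an unadjusted p under 0.05. The right cortex had 0 calls (0.0%), with 5 genes at an unadjusted p under 0.05 and 3 called by DESeq2, and edgeR called 3 genes without HOM pool 8/9 and 1 without NON pool 4/5. Socs3 was at 37.1 and 62.4 in the HEM PM pools of the midbrain, 111 in the left cortex, and 86.7 and 128 in the right cortex. HOM PM pool 1/5 was above all of them, while HOM PM pool 8/9, at 47.2, 70.1 and 92.4, lay between the HEM pools of the midbrain and of the right cortex and below that of the left cortex. HOM minus HEM for Socs3 was 1.70 (SE 0.78, adjusted p = 0.275) in the midbrain and 1.496 (SE 0.71, adjusted p = 0.361) in the right cortex by edgeR's quasi-likelihood test. Without HOM pool 1/5 these were -0.090 and -0.22, and without HOM pool 8/9 they were 2.47 and 2.25 (adjusted p = 0.00718 and 0.0155 by the edgeR test, with 1 pool in the HOM arm).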

How the data were processed

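The members, gene lists and tests were chosen with earlier results of these data known. Total RNA of T1 brain regions, pooled from 1 or 2 mice, was measured on an nCounter panel. The authors deposited raw counts per probe and pool, with no normalization, so the values are whole counts of probes. The deposited counts of the 43 target genes were tested with edgeR 4.0.16 in R 4.3.3 (estimateDisp, glmQLFit, glmQLFTest, two-sided), with library sizes set to each pool's geometric mean over 3 reference genes, genotype and collection time as additive terms, each region fitted apart, and Benjamini-Hochberg adjustment over the 43 genes. 1 reference gene is not reported here. The study used NanoStringDiff, which was not run here. Differences between regions were fitted with the pool as a block, since pools with the same mouse numbers and genotype hold the same mice, and HOM and NON pools of 1 region have no pairing. Differences in collection time, time point and genotype dose were fitted as interactions or group contrasts. DESeq2 1.42.0, other scalings, background subtraction, a filter for genes above background in at least 4 pools, other sample sets and each pool left out were the alternatives. Scripts were tested on simulated counts. All 43 target probes matched RefSeq genes (GRCm38.p6) by accession. Named genes were those at an adjusted p under 0.05, genes the study names for these regions or T1, and the 3 genes above background with the largest absolute change in each region. Of 64 pairs of pools of 1 group, 0 held identical counts and every pair differed beyond sampling noise (chi-square over degrees of freedom at least 6.78). Pools of 1 group hold different mice, and p-values measure the spread between pools. The T1 HEM pools without a collection time entered no test.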

Additional observations from a re-analysis of the deposited data

Results flagged for a closer look

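Of 60 groups of 4 or 5 pools, 7 held a pool whose gap to its neighbour took up most of the range of its group. Chance gives about 1 in 20 in independent groups of genes not chosen by their values. That rate does not apply here, since the groups share pools and mice and some of the genes were chosen for their change. HOM PM pool 1/5 stood apart in 6 of them, with Socs3 at 279.6 in the midbrain and 515 in the right cortex, Npy at 39468, Stat3 at 6629 and Iapp at 69.0 in the midbrain, and Cart at 1127 in the right cortex, all as normalised counts. The other HOM pools of the right cortex had Cart at 1741, 1652 and 1719. The lowest NON PM pool there was at 1129, so this Cart value stood apart among the HOM pools only. NON PM pool 4/5 stood apart for Iapp in the midbrain, at 97.7.

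The edgeR fits called 3 differences between collection times or between HOM and HEM with 2 or more pools an arm. The midbrain PM effect minus the AM effect on Cart was -0.80 on the log2 scale, with both HOM AM pools above NON and both HOM PM pools below NON. Among PM pools of the midbrain, HOM minus HEM was -0.64 for Cart and -0.41 for Mc4r, with 2 pools in each group. For Lepr in the left cortex HOM minus HEM was 0.91, but HEM was 1 pool that lay below the other HEM pools there, so no difference between genotypes is read from this value.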

How the results depend on the processing

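Of the counts of called genes, 70 recomputed under an alternative other than a left-out pool stayed within 1.5 times the count reported and 8 did not. For HOM against NON, DESeq2 called 4 genes (left cortex) and 1 (right cortex) against 0 by edgeR, scaling by the positive control probes called 25 in the left cortex (Socs3, Stat3, Npy, Lepr, Insr, Arrb1 and Ramp2 among them), and scaling without the third reference gene called 3 there. DESeq2 also called 1 gene for the left cortex minus the midbrain, 6 and 3 for HOM against HEM (left and right cortex), and TMM called 1 gene for HOM against HEM in the midbrain, where the difference in Mc4r was -0.32. Scaling by the positive control probes turned the sign of c-Fos (0.14), Calcr (0.23), Pomc (0.28) and Cart (0.024) in the left cortex and of Iapp (0.13) and Cart (0.12) in the right. In the right cortex the sign also turned without the third reference gene for Iapp (0.036) and Cart (0.030), and with background subtracted for Iapp (0.081). With TMM, Socs3 was at 0.034 for the right minus the left cortex and 0.0069 for T2 minus T1 in the left cortex. Without the replicate block, which pairs regions of the same mice, Socs3 was at 0.018 for the right minus the left cortex, and 1.59 for the midbrain minus the hindbrain, and no other sign or call among the 12 results refitted without it changed. The cause of these changes was not tested.

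With 1 pool left out at a time, 0 genes were called for HOM against NON in each region. The log2 fold-change of Socs3 ran from -0.11 to 1.21 in the midbrain, that of Stat3 from -0.0071 to 0.27 there, that of Npy from -0.053 to 0.49 (midbrain), -0.065 to 0.29 (left cortex), -0.085 to 0.30 (right cortex), that of Calcr from -0.11 to 0.019 (midbrain), -0.70 to 0.24 (left cortex), -0.017 to 0.33 (right cortex), that of Cart from -0.25 to 0.026 (midbrain), -0.15 to 0.11 (right cortex), that of Iapp from -1.04 to 0.11 (midbrain), -0.091 to 0.086 (right cortex), that of Ins1 from -0.025 to 0.36 (left cortex), -0.14 to 0.55 (right cortex), and that of Pomc from -0.22 to 0.031 (left cortex), -0.048 to 0.28 (right cortex). Socs3 ran from -0.0093 to 0.34 for the left cortex minus the midbrain and -0.15 to 0.11 for the right minus the left cortex. For the PM effect minus the AM effect it ran from -0.34 to 1.87 (left cortex) and -0.053 to 2.42 (right cortex). For HOM against HEM it ran from -0.090 to 2.47, -0.66 to 1.56 and -0.22 to 2.25, and for T2 minus T1 from -0.77 to 1.22, -1.17 to 0.60 and -1.16 to 0.69, in the midbrain, left and right cortex. Counts of called genes ran from 0 to 5, 0 to 2 and 0 to 3 for the PM effect minus the AM effect and from 0 to 6, 0 to 2 and 0 to 3 for HOM against HEM in the midbrain, left and right cortex, and from 0 to 1 for the right cortex minus the hindbrain, where NON pool 2/7 decided it. The counts for HOM against HEM in the left cortex rest on 1 HEM pool. With 4 and 5 pools in each region and 2 HOM pools for each collection time, 1 pool could move a mean by more than the difference between groups, and Ins1, Ins2, Iapp and, in the cortices, Calcr were at or under background in some pools.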

Other observations

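The labels give no collection time for T1 HEM pools 1/2, 3/4 and 5/6, which entered no comparison. Their normalised counts of Socs3 were 61.8, 54.0 and 48.0 in the midbrain, 113, 102 and 94.3 in the left cortex and 145, 133 and 110.3 in the right cortex. Npy was at 13807, 9786 and 13356, 57189.8, 57613 and 58166 and 64016, 72219 and 64956. Midbrain Cart was at 5041, 4591 and 3152, Calcr at 613, 959 and 269, and Pomc at 57.6, 336 and 51.5, so that pools 1/2 and 5/6 had less Pomc than the 9 HOM and NON pools (197 to 354).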
